A study of Homo sapiens with 15 samples.

Results

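The passage from G1 into S phase was followed here through 10 human genes: the D-type cyclins CCND1, CCND2 and CCND3, their kinases CDK4 and CDK6, the E-type cyclins CCNE1 and CCNE2 with their kinase CDK2, and the transcription factors E2F1 and E2F3. A gene was included when its transcript cluster, the array feature that gathers the probes of a gene, was annotated to that symbol alone. Each gene was represented by 1 transcript cluster, which gave 10 of the 17687 genes with a single symbol, or 10 of 21448 transcript clusters in all. The members were chosen by name and not by their values in any comparison, although earlier results of these data were known.

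RNA came from MG-63 cells, a human osteosarcoma line with osteoblast-like features, and was hybridised to Clariom S arrays. Ti-TMS-PEI was titanium coated with trimethoxysilylpropyl modified poly(ethyleneimine), a polymer layer rich in amino groups, and Ti-Ref, its control, was titanium without the coating. The groups were Ti-TMS-PEI after 4 h (4 arrays), Ti-Ref after 4 h (4 arrays), Ti-TMS-PEI after 24 h (4 arrays) and Ti-Ref after 24 h (3 arrays, the other having been removed by the authors for its labelling controls). All cells grew in DMEM with 10% FCS, a single line was used, and the chips were moved to fresh wells before lysis so that only adherent cells were collected.

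D-type cyclins accumulate in response to growth factors and adhesion, bind CDK4 or CDK6 and start the phosphorylation of the retinoblastoma protein RB1. Phosphorylated RB1 releases E2F factors, which switch on the genes of DNA replication and also CCNE1, CCNE2 and E2F1 itself, and cyclin E with CDK2 then completes the phosphorylation of RB1. In osteoblast-like cells, as in other adherent cells, spreading on a substrate is among the inputs that control this step.

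All values are log2 signals, so a difference of 1 is a doubling, and differences are given as Ti-TMS-PEI minus Ti-Ref. The median signal of an array lay between 5.79 and 5.86 at 4 h and between 6.71 and 6.79 at 24 h. Both times may therefore have been normalised separately, which the sources do not state, and levels were compared only within a time. The array medians also separated the surfaces, in opposite directions at 4 h and 24 h. At 4 h they were 5.79 to 5.83 on Ti-TMS-PEI and 5.84 to 5.86 on Ti-Ref. At 24 h they were 6.77 to 6.79 on Ti-TMS-PEI and 6.71 to 6.74 on Ti-Ref. These offsets remain in the values below, and counts with arrays centred on their medians are given at the end. The median SD between replicate arrays was 0.22 at 4 h and 0.18 at 24 h, while the pooled SDs of the 10 genes lay between 0.061 and 0.32 at 4 h and between 0.041 and 0.36 at 24 h. The number of arrays limits the precision. Independent experiments are stated for the arrays, but technical replicate groups are mentioned as well, so p-values measure the spread between arrays, part of which may be technical. As for the label, the collagen genes COL1A1 and COL1A2, SPARC and VIM were bright on both surfaces. Their mean signals lay between 14.7 and 17.0 in every group. The osteoblast markers IBSP, SPP1 and SP7 stayed below 5 in every group, and BGLAP was not analysed here. Mean signals of ALPL on Ti-TMS-PEI and Ti-Ref were 3.89 and 3.92 at 4 h and 6.13 and 6.06 at 24 h, below the array medians. Those of RUNX2 were 6.32 and 6.24 at 4 h, and 5.87 and 6.05 at 24 h, below the array medians at 24 h only. None of the 9 osteoblast and mesenchymal markers measured was differentially expressed at either time (limma, 0 of 9 also at an unadjusted p under 0.05). The share of all transcript clusters at that unadjusted threshold was 9.46% at 4 h and 24.3% at 24 h. The mean of 6 blood cell markers was 5.85 to 5.98 in the Ti-TMS-PEI arrays of 4 h and 5.57 to 5.67 in the Ti-Ref arrays of 4 h, without overlap. At 24 h it was 6.66 to 6.94 on Ti-TMS-PEI and 6.53 to 6.80 on Ti-Ref. Of the blood, endothelial and epithelial markers, 1 of 6 (CD68), 1 of 4 (CDH5) and 1 of 5 (KRT19) were differentially expressed and higher on Ti-TMS-PEI at 24 h. The share of all transcript clusters differentially expressed at 24 h was 6.15%. PTPRC, which marks all white blood cells, had mean signals of 5.34 on Ti-TMS-PEI, against 5.93 on Ti-Ref, at 24 h, both below the array medians. The part of these markers in the results below was not tested.

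E2F factors bind short words near gene starts, and these were searched in the promoter windows available for the 10 genes. Promoter stretches are shown for E2F1 and E2F3, the only searched genes in which a word was found. The words TTTCCCGC, TTTCGCGC, TTTGGCGC and TTTGCCGC were searched on both strands in RefSeq promoter windows of GRCh38.p14, from 250 bases before to 50 bases after an annotated start. Windows were matched by symbol for 6 of the 10 genes, CCND3, CCNE1, CDK4, CDK6, E2F1 and E2F3, with 10 windows in all, and no window was searched for CCND1, CCND2, CCNE2 and CDK2. An exact word stood in 1 window of E2F1 and in 1 of the windows of E2F3, while 3.31% of all 35116 windows held such a word. In E2F1 the matches lay 33 to 26 bases before the start (TTTGCCGC, read on the reverse strand) and 20 to 13 bases before it (TTTGGCGC), and in E2F3 the match lay 53 to 46 bases before the start (TTTCCCGC, read on the reverse strand). No matches overlapped one another, and a match describes letters and not a bound site. The 100 bases before each start follow, 5′ to 3′ on the strand of the gene, with the matched words in capitals; E2F1 lies at chr20:33686386-33686485 on the minus strand and E2F3 at chr6:20401779-20401878 on the plus strand.
E2F1: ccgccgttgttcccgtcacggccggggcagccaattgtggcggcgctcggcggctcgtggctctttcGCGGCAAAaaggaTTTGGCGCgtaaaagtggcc
E2F3: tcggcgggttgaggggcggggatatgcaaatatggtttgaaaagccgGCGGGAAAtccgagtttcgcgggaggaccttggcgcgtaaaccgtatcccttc

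After 4 h, CCND1 and E2F3 stood higher on Ti-TMS-PEI in every array, and the other 8 genes overlapped between the surfaces. After 24 h, CCND1 was again higher in every Ti-TMS-PEI array, whereas CCNE1, CCNE2, CDK2, CDK4 and E2F1 were lower in every Ti-TMS-PEI array. CCND2, CCND3, CDK6 and E2F3 overlapped at 24 h. The panels of signal by array show these separations gene by gene.

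**Figure D1:**
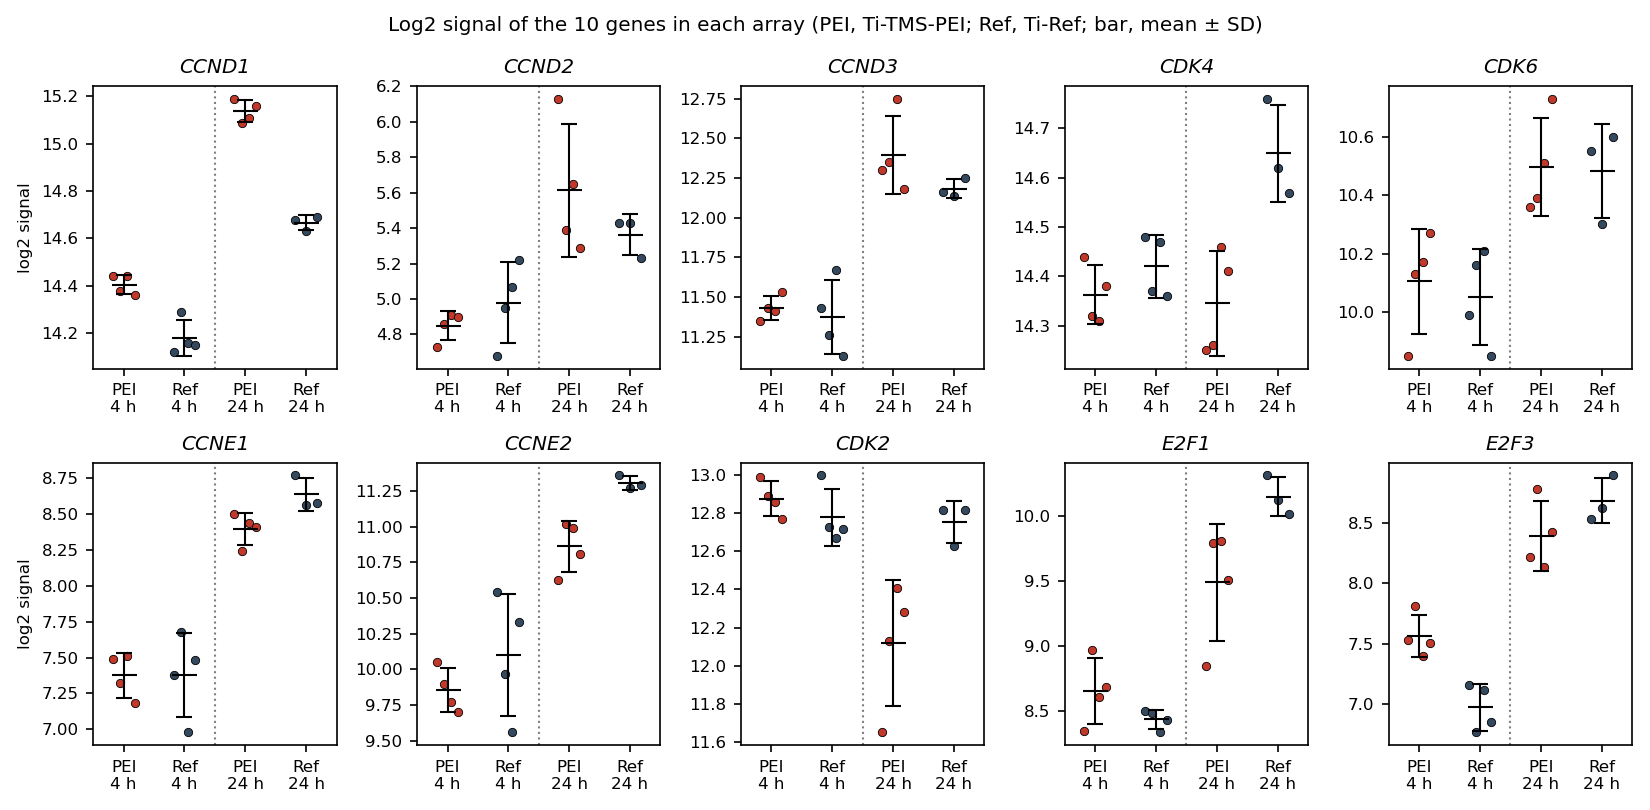
Log2 signal (y axis, a separate range for each gene) of the 10 genes in the Ti-TMS-PEI (red) and Ti-Ref (dark blue) arrays of 4 h and 24 h. Points are arrays and bars are means ± SD, with n = 4, 4, 4 and 3 from left to right. CCND1 separated the surfaces at both times, E2F3 only at 4 h, and CCNE1, CCNE2, CDK2, CDK4 and E2F1 only at 24 h. Levels should not be compared across the dotted line because the times may have been normalised separately.

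Differential expression required a change of more than 1.5-fold together with p and Benjamini-Hochberg adjusted p values under 0.05 in limma, which tested all 21448 transcript clusters. None of the 10 genes passed at 4 h, where 0.042% of all transcript clusters did, and none passed at 24 h, where 6.15% did. At an unadjusted p under 0.05, 2 of 10 genes (CCND1 and E2F3) passed at 4 h against 9.46% of all transcript clusters, and 5 of 10 (CCND1, CCNE2, CDK2, CDK4 and E2F1) passed at 24 h against 24.3% of all. The surfaces did not overlap for 2 of 10 genes at 4 h, both higher on Ti-TMS-PEI, against 5.77% of all transcript clusters. They did not overlap for 6 of 10 genes at 24 h, 1 higher and 5 lower on Ti-TMS-PEI, against 23.5% of all. Without the fold threshold, 2 of 10 genes (CCND1 and CCNE2) had an adjusted p under 0.05 at 24 h, against 9.42% of all. The median log2 fold change of the 10 genes was 0.055 at 4 h and -0.27 at 24 h, and that of all transcript clusters was -0.007 at 4 h and -0.003 at 24 h. The median size of the log2 fold change, without its sign, was 0.11 at 4 h and 0.30 at 24 h for the 10 genes, and 0.13 at 4 h and 0.17 at 24 h for all transcript clusters. In RNA from whole cultures, fewer cells in a phase of the cycle and less of a transcript per cell cannot be told apart.

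**Figure D2:**
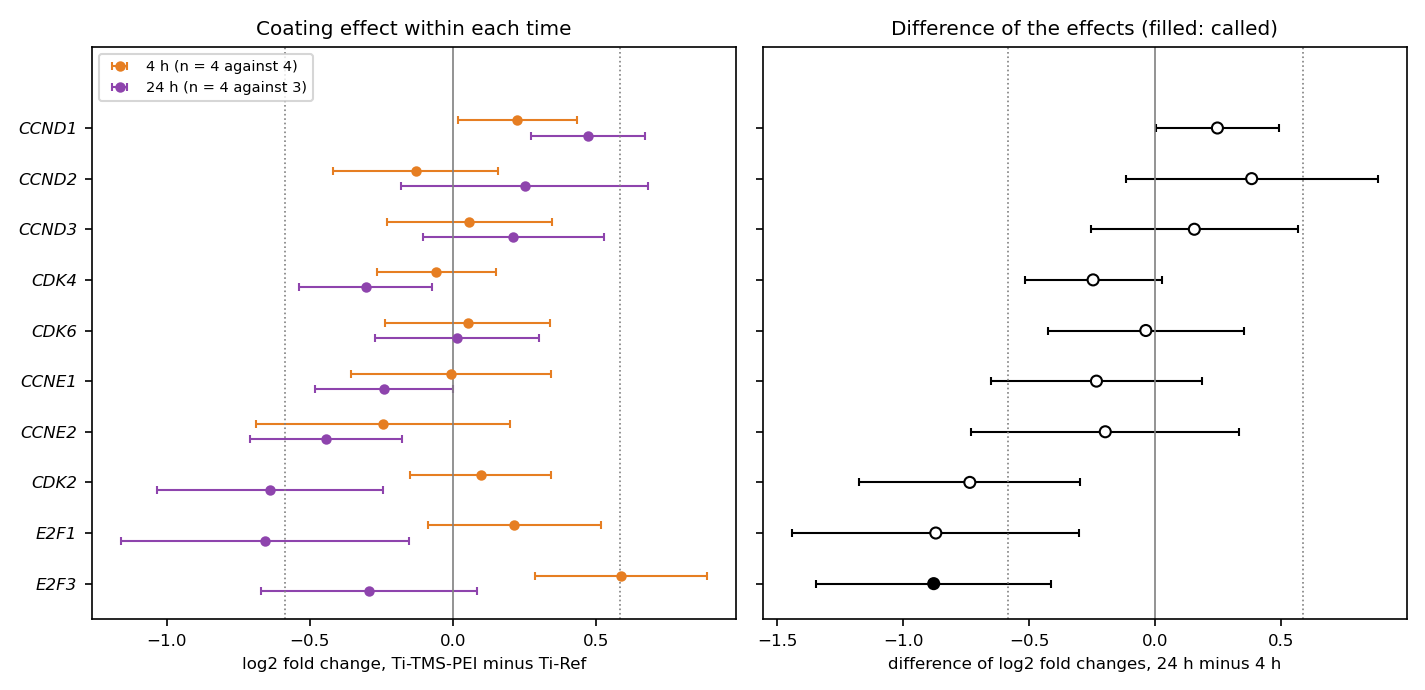
Log2 fold change of Ti-TMS-PEI minus Ti-Ref with its 95% confidence interval at 4 h (orange) and 24 h (purple) in the left panel, and the difference of both effects, 24 h minus 4 h, in the right panel. Dotted lines mark a 1.5-fold change; CDK2, E2F1 and E2F3 have the lowest values in the right panel (-0.74, -0.87 and -0.88), and the filled point, E2F3, was the only gene of the 10 that passed the thresholds there.

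CCND1 (TC1100008236.hg.1) encodes cyclin D1, the D-type cyclin most tied to adhesion and growth factor signals. After 4 h its signal was 14.44, 14.38, 14.44 and 14.36 in the Ti-TMS-PEI arrays, against 14.12, 14.29, 14.16 and 14.15 in the Ti-Ref arrays. The lowest Ti-TMS-PEI array thus stood above the highest Ti-Ref array, by less than the range within Ti-Ref. The difference of 0.23 ± 0.094 (SE), with a 95% interval of 0.016 to 0.43, did not pass after adjustment (limma, adjusted p = 0.495). After 24 h CCND1 read 15.19, 15.09, 15.11 and 15.16 on Ti-TMS-PEI, against 14.68, 14.63 and 14.69 on Ti-Ref. These were among the tightest groups of the 10 genes, with means of 15.14 ± 0.046 (SD, n = 4) and 14.67 ± 0.032 (SD, n = 3). That log2 difference of 0.47 ± 0.088 (SE) was a 1.39-fold higher signal, with a 95% interval of 0.27 to 0.67 and an adjusted p of 0.0130 in limma, below the 1.5-fold threshold. Without Ti-Ref array B of 24 h the adjusted p became 0.0527 at a log2 fold change of 0.45, and without any other array it stayed under 0.05.

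CCND2 (TC1200006555.hg.1) and CCND3 (TC0600011809.hg.1) encode the other D-type cyclins, which can replace cyclin D1 in many cell types. The CCND2 signal was dim, 4.73 to 4.91 on Ti-TMS-PEI and 4.68 to 5.22 on Ti-Ref at 4 h, and 5.29 to 6.13 on Ti-TMS-PEI and 5.23 to 5.43 on Ti-Ref at 24 h. All these values lay below the median of their arrays, where array signals are compressed towards background. Ti-TMS-PEI array A of 24 h held the highest value, 6.13, and the log2 fold change at 24 h was 0.25, with a 95% interval of -0.18 to 0.68 (limma, adjusted p = 0.476). It dropped to 0.08 when that array was left out. For CCND3 the signal at 4 h was 11.35 to 11.53 on Ti-TMS-PEI and 11.13 to 11.67 on Ti-Ref, and at 24 h it was 12.18 to 12.75 on Ti-TMS-PEI and 12.14 to 12.25 on Ti-Ref. Arrays A, B and C of Ti-TMS-PEI exceeded the Ti-Ref arrays of 24 h, array C by the most, and array D did not. The log2 fold change of CCND3 at 24 h was 0.21, with a 95% interval of -0.10 to 0.53 (limma, adjusted p = 0.406). Among the D-type cyclins, CCND1 was thus the only gene whose arrays separated the surfaces, at both times.

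The kinase partners of cyclin D, CDK4 (TC1200010977.hg.1) and CDK6 (TC0700011785.hg.1), phosphorylate RB1. At 4 h CDK4 gave signals of 14.31 to 14.44 on Ti-TMS-PEI and 14.36 to 14.48 on Ti-Ref, with a log2 fold change of -0.058 and a 95% interval of -0.27 to 0.15 (limma, adjusted p = 0.884). At 24 h CDK4 read 14.25, 14.26, 14.46 and 14.41 on Ti-TMS-PEI, against 14.76, 14.62 and 14.57 on Ti-Ref. The groups did not overlap, with a gap between array C of Ti-TMS-PEI and array C of Ti-Ref that was smaller than the range within either surface. This difference, -0.31 ± 0.10 (SE) with a 95% interval of -0.54 to -0.072, did not pass after adjustment (limma, adjusted p = 0.104). CDK6 overlapped at both times, with 9.85 to 10.27 on Ti-TMS-PEI and 9.85 to 10.21 on Ti-Ref at 4 h, and 10.36 to 10.73 on Ti-TMS-PEI and 10.30 to 10.60 on Ti-Ref at 24 h. Its log2 fold changes were 0.053 (95% interval -0.24 to 0.34) at 4 h and 0.014 (95% interval -0.27 to 0.30) at 24 h, with limma adjusted p values of 0.932 and 0.966. These intervals exclude a 1.5-fold difference of CDK6 in either direction at either time, and the interval of CDK4 at 24 h lies below 0 but excludes a signal 1.5-fold lower on Ti-TMS-PEI.

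CCNE1 (TC1900007688.hg.1) and CCNE2 (TC0800011148.hg.1) encode the E-type cyclins, E2F targets that activate CDK2 at the end of G1. CCNE1 overlapped at 4 h, with 7.18 to 7.51 on Ti-TMS-PEI and 6.98 to 7.68 on Ti-Ref. At 24 h CCNE1 read 8.50, 8.24, 8.44 and 8.41 on Ti-TMS-PEI, against 8.77, 8.56 and 8.58 on Ti-Ref. The surfaces did not overlap, yet array A of Ti-TMS-PEI came within 0.1 of array B of Ti-Ref, and the log2 fold change of -0.24 ± 0.11 (SE; 95% interval -0.48 to 0.0021) did not pass (limma, adjusted p = 0.209). CCNE2 read 10.05, 9.90, 9.77 and 9.70 on Ti-TMS-PEI at 4 h, against 10.54, 9.97, 9.56 and 10.33 on Ti-Ref. The Ti-TMS-PEI values all lay inside that range, and the log2 fold change of -0.25 at 4 h had a 95% interval of -0.69 to 0.20 (limma, adjusted p = 0.731). At 24 h CCNE2 read 10.63, 11.02, 10.99 and 10.81 on Ti-TMS-PEI, against 11.36, 11.27 and 11.29 on Ti-Ref. Every Ti-TMS-PEI array lay below every Ti-Ref array, and the Ti-Ref arrays lay close together. Its log2 fold change was -0.44 ± 0.12 (SE), a 1.36-fold lower signal with a 95% interval of -0.71 to -0.18 (limma, adjusted p = 0.0477), below the 1.5-fold threshold. Leaving out any of the 7 arrays raised the adjusted p above 0.05, to between 0.0562 and 0.142, while the log2 fold change stayed between -0.50 and -0.37.

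CDK2 (TC1200007819.hg.1) is the kinase that cyclin E, and later cyclin A, activates. At 4 h its signal was 12.99, 12.89, 12.86 and 12.77 in the Ti-TMS-PEI arrays and 13.00, 12.73, 12.67 and 12.72 in the Ti-Ref arrays, which overlapped. The log2 fold change at 4 h was 0.098, with a 95% interval of -0.15 to 0.34 (limma, adjusted p = 0.821). At 24 h CDK2 read 11.65, 12.13, 12.41 and 12.28 on Ti-TMS-PEI, against 12.82, 12.63 and 12.82 on Ti-Ref. All Ti-TMS-PEI arrays were lower, array A by the most, and they spread more widely than the Ti-Ref arrays, with means of 12.12 ± 0.33 (SD, n = 4) and 12.76 ± 0.11 (SD, n = 3). CDK2 was thus 1.56-fold lower (log2 fold change -0.64 ± 0.17 SE, 95% interval -1.03 to -0.25), which just missed the adjusted threshold (limma, adjusted p = 0.0525). Without Ti-TMS-PEI array C of 24 h, CDK2 passed all thresholds, at a log2 fold change of -0.74 and an adjusted p of 0.0403. Without any other array it did not pass, and without array A the log2 fold change was -0.48.

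E2F1 (TC2000008894.hg.1) is the activator E2F whose promoter words are printed above, and it is among the targets of E2F itself. At 4 h it read 8.35, 8.97, 8.61 and 8.69 on Ti-TMS-PEI, against 8.50, 8.49, 8.34 and 8.43 on Ti-Ref. Arrays B, C and D of Ti-TMS-PEI exceeded all Ti-Ref arrays and array A did not, which left a log2 fold change of 0.22 with a 95% interval of -0.088 to 0.52 (limma, adjusted p = 0.647). At 24 h E2F1 read 8.85, 9.79, 9.81 and 9.51 on Ti-TMS-PEI, against 10.31, 10.12 and 10.01 on Ti-Ref. The surfaces did not overlap, and array A of Ti-TMS-PEI was the lowest by a wide margin. A 1.58-fold lower signal resulted (log2 fold change -0.66 ± 0.22 SE, 95% interval -1.16 to -0.15), which did not pass after adjustment (limma, adjusted p = 0.104). Without array A it was -0.44, with an adjusted p of 0.0972.

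E2F3 (TC0600007138.hg.1) encodes another activator E2F, needed in many cells for entry into S phase. At 4 h it gave the largest log2 fold change of the 10 genes, with 7.53, 7.81, 7.40 and 7.51 on Ti-TMS-PEI, against 7.16, 6.77, 7.12 and 6.85 on Ti-Ref. Every Ti-TMS-PEI array lay above every Ti-Ref array. Its log2 fold change of 0.59 ± 0.13 (SE; 95% interval 0.29 to 0.89) was just over the 1.5-fold threshold and did not pass after adjustment over all transcript clusters (limma, adjusted p = 0.201). At 24 h E2F3 read 8.22, 8.78, 8.13 and 8.42 on Ti-TMS-PEI, against 8.53, 8.62 and 8.89 on Ti-Ref. Array B of Ti-TMS-PEI lay among the Ti-Ref arrays and the other 3 lay below them, and the log2 fold change of -0.29 had a 95% interval of -0.67 to 0.086 (limma, adjusted p = 0.330).

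Whether the coating effect differed between the times was tested over all 15 arrays as an interaction, the effect at 24 h minus the effect at 4 h. E2F3 passed an adjusted p under 0.05 with a difference over 1.5-fold, which made 1 of 10 genes against 4.78% of all transcript clusters. Its difference was -0.88 ± 0.22 (SE), with a 95% interval of -1.35 to -0.41 and an adjusted p of 0.0293 in limma: the signal was higher on Ti-TMS-PEI at 4 h and was lower, with overlap, at 24 h. E2F3 no longer passed when any 1 of 7 arrays was left out, namely Ti-TMS-PEI array B of 4 h (adjusted p = 0.0602), Ti-Ref array B of 4 h (0.0588), Ti-Ref array D of 4 h (0.0530), Ti-TMS-PEI array A of 24 h (0.0659), Ti-TMS-PEI array C of 24 h (0.0501), Ti-Ref array B of 24 h (0.0577) and Ti-Ref array C of 24 h (0.0827). At an unadjusted p under 0.05, 4 of 10 genes passed (CCND1, CDK2, E2F1 and E2F3), against 18.8% of all transcript clusters. CDK2 had a difference of -0.74 ± 0.21 (SE; adjusted p = 0.0510) and E2F1 of -0.87 ± 0.27 (SE; adjusted p = 0.0737), both lower at 24 h than at 4 h relative to Ti-Ref. CDK2 passed without Ti-Ref array A of 4 h (adjusted p = 0.0414), without Ti-TMS-PEI array C of 24 h (0.0252) or without Ti-TMS-PEI array D of 24 h (0.0467), and E2F1 passed without Ti-TMS-PEI array C of 24 h (0.0478). For CCND1 the difference was 0.25, with a 95% interval of 0.0020 to 0.49 (adjusted p = 0.261). For CCNE1, CCNE2 and CDK4, which did not overlap only at 24 h, the differences were -0.23 (95% interval -0.65 to 0.19), -0.20 (-0.73 to 0.33) and -0.25 (-0.52 to 0.025), and none passed.

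Within the Ti-TMS-PEI arrays of 24 h the genes did not vary in the same way. Array A was the lowest of its group for 5 genes (CCNE2, CDK2, CDK4, CDK6 and E2F1) and the highest for 3 (CCND1, CCND2 and CCNE1). Its CCND1 signal of 15.19 was thus the highest of the group while its E2F1 signal of 8.85 was the lowest.

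**Figure D3:**
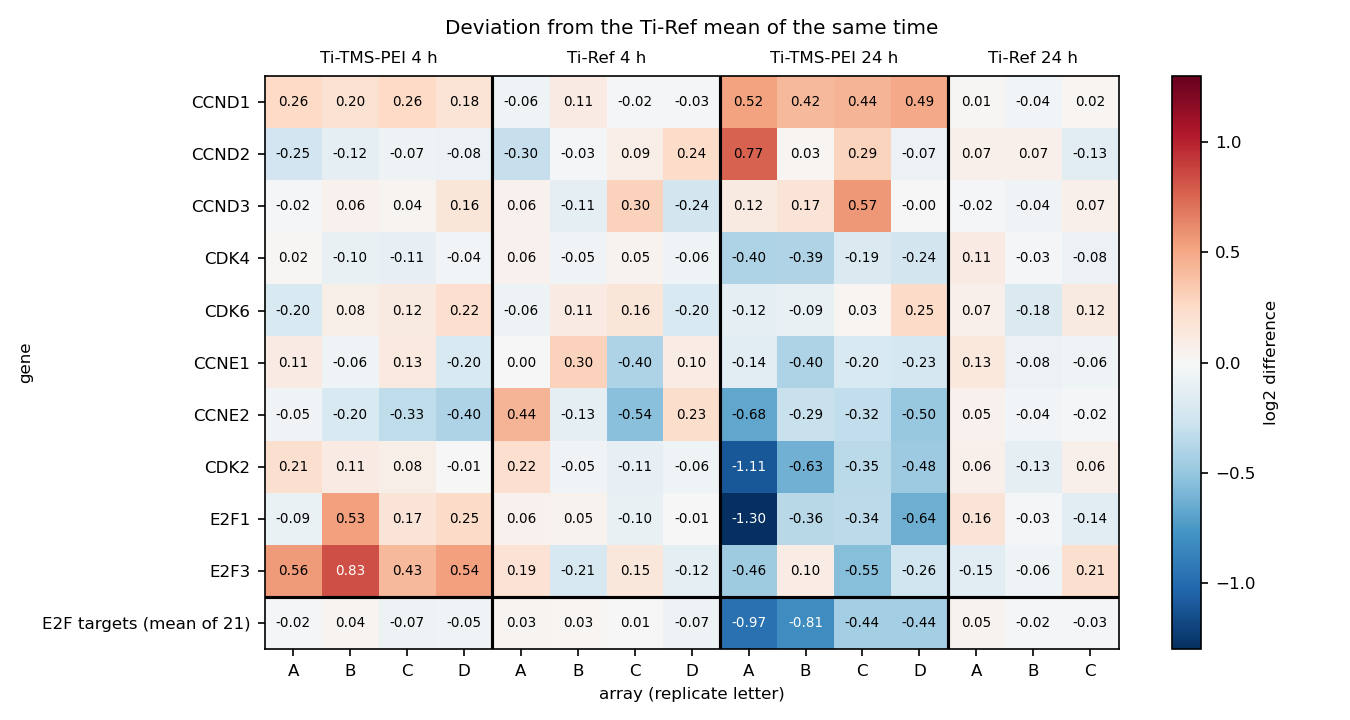
Deviation of each array (columns) from the Ti-Ref mean of the same time, on the log2 scale, for the 10 genes and for the mean of 21 E2F target genes (rows). Red is above and blue is below the Ti-Ref mean; CCND1 is above in all 8 Ti-TMS-PEI arrays, E2F3 in the Ti-TMS-PEI arrays of 4 h, and CDK2, E2F1, CCNE2 and the E2F targets are below in all 4 Ti-TMS-PEI arrays of 24 h, most strongly in array A.

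The genes around these 10 were followed in 6 lists, which were drawn up with earlier results of these data known. At 4 h none of their genes was differentially expressed in limma, and at an unadjusted p under 0.05 the number was 2 of 6 CDK inhibitors, 1 of 11 RB family, E2F and DP genes, 0 of 21 E2F targets, 0 of 13 genes of CDK activation and cyclin degradation, 3 of 14 transcription factors of the cyclin D1 promoter and 0 of 5 S and M phase cyclins and CDK1. The share of all transcript clusters at that threshold was 9.46%. At 24 h, when 6.15% of all transcript clusters were differentially expressed, the ranges of most lists overlapped and no test was made between lists; the plot of log2 fold changes by list shows their genes.

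**Figure D4:**
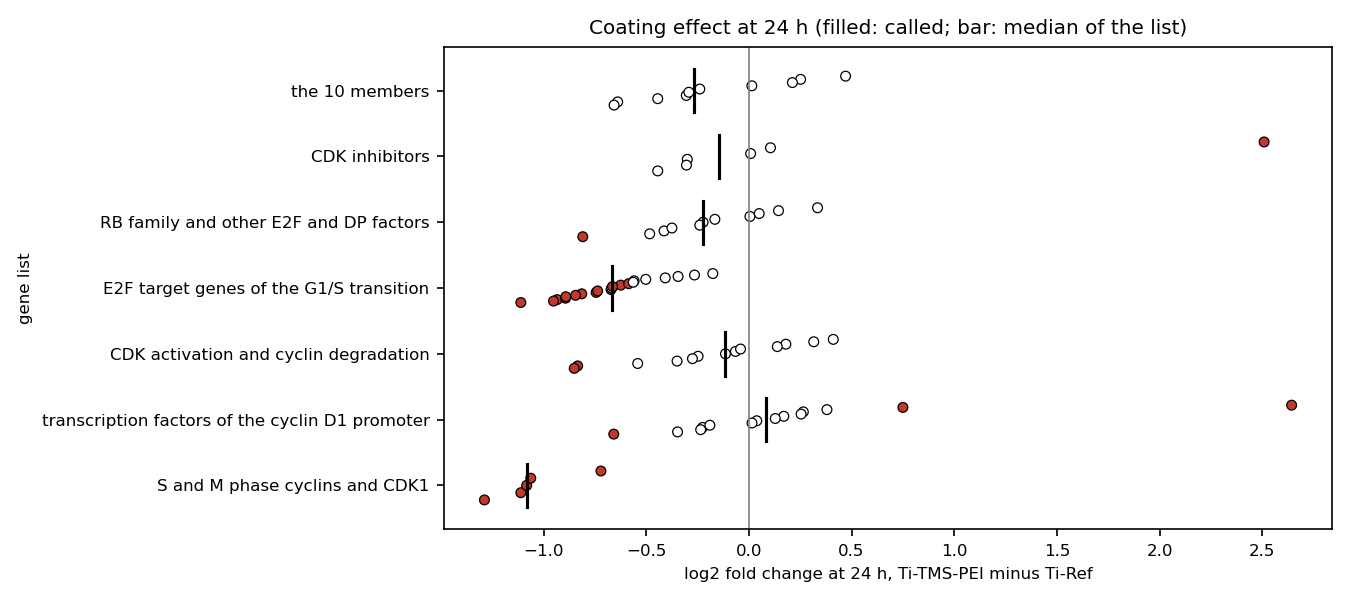
Log2 fold change at 24 h (x axis, Ti-TMS-PEI minus Ti-Ref) of the 10 genes and of the genes of 6 lists (y axis), with differentially expressed genes filled and the median of each list as a bar. Of the E2F targets 13 of 21 were differentially expressed and all were below 0; of the 10 genes none was.

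CDK inhibitors block the cyclin and kinase pairs described above. CDKN1A, which encodes p21, an inhibitor of CDK2 complexes, was the only 1 of 6 measured inhibitors that was differentially expressed at 24 h (against 6.15% of all transcript clusters), and it rose. Its signal was 13.00, 13.42, 13.03 and 12.88 on Ti-TMS-PEI, against 10.45, 10.43 and 10.84 on Ti-Ref, a 5.69-fold higher signal (log2 fold change 2.51 ± 0.16 SE, limma adjusted p = 0.000244). At 4 h the CDKN1A arrays also did not overlap, with 13.25 to 13.58 on Ti-TMS-PEI and 12.30 to 12.77 on Ti-Ref, and the log2 fold change of 0.87 had an adjusted p of 0.0748. For CDKN1B, which encodes p27, the difference was -0.44 at 24 h (adjusted p = 0.0416) and -0.41 at 4 h (adjusted p = 0.462), under 1.5-fold at both times. The median of the 6 inhibitors at 24 h was -0.15, against -0.003 for all transcript clusters, and CDKN2C was not analysed here.

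Among the 11 other E2F, DP and RB family genes, 1 was differentially expressed at 24 h, close to the 6.15% of all transcript clusters: E2F8, an atypical E2F that represses E2F targets and is itself an E2F target, fell by 0.81 in log2 units (limma, adjusted p = 0.0146). It no longer passed without Ti-Ref array A (adjusted p = 0.0625) or array C (0.0527) of 24 h. The median of this list at 24 h was -0.22. In the interaction 2 of 11 genes passed in limma, against 4.78% of all transcript clusters. They were E2F8 (-0.84, adjusted p = 0.0155) and E2F4, a repressor E2F (-0.70, adjusted p = 0.0348), with the same sign as E2F3. E2F4 was lost there when Ti-TMS-PEI array C or D or Ti-Ref array A, B or C of 4 h, or Ti-TMS-PEI array A or B or Ti-Ref array B or C of 24 h was left out, with an adjusted p of up to 0.0940 (without Ti-Ref array C of 24 h).

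E2F target genes of the G1/S transition, which encode the machinery of DNA replication and nucleotide synthesis, gave 13 of 21 measured that were differentially expressed at 24 h, against 6.15% of all transcript clusters, and these 13 were lower on Ti-TMS-PEI. The other 8 did not pass, and 18 of 21 had an unadjusted p under 0.05. Their median log2 fold change was -0.67, with a range of -1.11 to -0.18, against a median of -0.003 for all transcript clusters. The smallest adjusted p values belonged to CCNA2 (cyclin A2, the S phase partner of CDK2; -1.11, adjusted p = 0.00384), RRM1 (ribonucleotide reductase; -0.67, 0.00627), UHRF1 (a factor of maintenance DNA methylation; -0.89, 0.00783) and MCM10 (a replication initiation factor; -0.95, 0.0114). The mean signal of the 21 genes was 11.15, 11.31, 11.68 and 11.68 in arrays A to D of Ti-TMS-PEI, against 12.17, 12.10 and 12.09 in arrays A to C of Ti-Ref. Array A of Ti-TMS-PEI was thus the lowest, as it was for CCNE2, CDK2, CDK4 and E2F1, and all Ti-TMS-PEI arrays lay below the Ti-Ref arrays. At 4 h the median was -0.012. In the interaction 8 of 21 genes passed, all with a negative difference, against 4.78% of all transcript clusters. That count ranged from 4 to 12 when each array was left out, and was 4 or 5 without Ti-TMS-PEI array A or B or Ti-Ref array D of 4 h, or without Ti-TMS-PEI array A or B or any Ti-Ref array of 24 h. The count of 13 at 24 h ranged from 3 to 14 when each array was left out. It became 6 without Ti-TMS-PEI array B, 3 without Ti-Ref array A, 4 without Ti-Ref array B and 6 without Ti-Ref array C. Without Ti-TMS-PEI array A, the genes MCM2, MCM6, MCM7 and TK1 no longer passed. CCNA2, RRM1 and UHRF1 passed without any of the 7 arrays, and MCM10 was lost only without Ti-Ref array A (adjusted p = 0.0528).

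The genes that activate CDKs or degrade G1 cyclins and inhibitors gave 2 of 13 differentially expressed at 24 h, against 6.15% of all transcript clusters, both lower on Ti-TMS-PEI. These were CKS1B and SKP2, which act together in the ubiquitin ligase that degrades p27. CKS1B fell by 0.85 in log2 units (limma, adjusted p = 0.00714), with 12.39 to 12.91 on Ti-TMS-PEI and 13.37 to 13.63 on Ti-Ref. SKP2 fell by 0.83 log2 units (adjusted p = 0.0100), with 12.59 to 13.18 on Ti-TMS-PEI and 13.67 to 13.83 on Ti-Ref. The median of the 13 genes was -0.11. Among the genes of this list that were not called, only FBXW7 had an adjusted p under 0.05 at 24 h. It was higher on Ti-TMS-PEI without overlap (limma, log2 fold change 0.41, adjusted p = 0.0438), under the 1.5-fold threshold.

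Transcription factors known to act on the cyclin D1 promoter gave 3 of 14 differentially expressed at 24 h, against 6.15% of all transcript clusters, 2 higher and 1 lower on Ti-TMS-PEI, with a median of 0.083. EGR1, an immediate early factor, rose 6.25-fold, with 15.38, 15.12, 15.16 and 15.66 on Ti-TMS-PEI, against 12.22, 12.97 and 12.87 on Ti-Ref (limma, log2 fold change 2.64 ± 0.20 SE, adjusted p = 0.000441). FOS rose by 0.75 on the log2 scale, with dim mean signals of 5.51 on Ti-TMS-PEI, against 4.76 on Ti-Ref (adjusted p = 0.0338). JUN, its partner in AP-1, was lower on Ti-TMS-PEI by a log2 difference of -0.66 (adjusted p = 0.0151). JUN was lost without Ti-Ref array B (adjusted p = 0.0606) or C (0.0528) of 24 h, and FOS without any single array other than Ti-TMS-PEI array B. At 4 h the smallest adjusted p values of the list in limma were 0.0986 for FOSL1 (log2 fold change 0.70) and 0.219 for EGR1 (0.76). Both were higher on Ti-TMS-PEI without overlap, and so was JUN (0.33, adjusted p = 0.405). At 24 h FOSL1 was lower on Ti-TMS-PEI, with overlap (-0.35, adjusted p = 0.148), while CCND1 was higher at both times. A link of these factors to CCND1 was not tested. In the interaction 3 of 14 genes passed, against 4.78% of all transcript clusters. EGR1 had a positive difference (1.89), and JUN (-0.99) and FOSL1 (-1.04) had negative differences.

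Further along the cycle, all 5 S and M phase genes were differentially expressed and lower on Ti-TMS-PEI at 24 h, against 6.15% of all transcript clusters. Their median log2 fold change was -1.08, against -0.003 for all transcript clusters, and CCNA2 is also counted among the E2F targets. CCNB1 and CCNB2, the B-type cyclins of mitosis, fell by 1.08 (adjusted p = 0.00864) and 1.06 (0.00918) on the log2 scale, CCNF, an F-box protein of G2, by 1.29 (0.0126), and CDK1, the mitotic kinase, by 0.72 (0.0196), all by limma. The count became 3 without Ti-Ref array A of 24 h, where CCNF (adjusted p = 0.0543) and CDK1 (0.0784) were lost, and CDK1 was also lost without Ti-Ref array B (0.0621) or Ti-TMS-PEI array B (0.0582) of 24 h. The log2 fold changes of these 5 genes at 24 h, -1.29 to -0.72, were all lower than those of CDK2 (-0.64) and E2F1 (-0.66). In the interaction 3 of the 5 passed with negative differences (CCNA2, CCNB1 and CCNF), against 4.78% of all transcript clusters. That interaction count ranged from 2 to 5 when each array was left out.

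CCND1 had the smallest p of the 10 genes at 24 h, and its signal was compared with that of the other 17708 transcript clusters with a single symbol over the 15 arrays, after subtraction of the mean of each time. The most similar patterns were those of HPCAL1 (Pearson r = 0.975), VGLL4 (r = 0.965) and GEM (r = 0.960), given as a description over arrays that share both the surface and the time. Their log2 fold changes at 24 h were 0.71 for HPCAL1, 1.94 for VGLL4 and 2.60 for GEM, against 0.47 for CCND1, and at 4 h they were 0.26, 0.82 and 0.96, against 0.23 for CCND1.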

How the data were processed

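The authors processed the scanned Clariom S arrays in the Transcriptome Analysis Console with SST-RMA, which adjusts background, transforms the signal space, normalises by quantiles and summarises probes, and deposited log2 values for transcript clusters. The genome build of the array annotation is not given in the sources used here. Array signals carry no read depth. The deposited values were used unchanged. Symbols came from the platform annotation, which gives no symbol or several for 3739 transcript clusters, and these were tested but not named. Groups followed the sample labels. In R 4.3.3, limma 3.58.1 fitted surface within each time, and the interaction over all 15 arrays, with Benjamini-Hochberg adjustment over all transcript clusters, and the code was tested on simulated data. The members and lists were chosen with earlier results of these data known. All 10 members were named, and so were the 3 genes most similar to CCND1. Of each list up to 4 genes were named by smallest adjusted p among those called at a time. Where none was called, up to 2 were named. CDK1 and FBXW7 were added after their values were seen. As alternatives the fits were repeated with the replicate letter as a block, with 1 spread for all arrays, with trended and robust variances, with weighted arrays, without the dimmest 25%, after 2 other scalings, at other thresholds, with a single transcript cluster for every gene and without each array in turn. Those for the lists were chosen after seeing the data. Promoters were searched with Python 3.11.15 and pandas 2.3.3, and figures drawn with matplotlib 3.10.9.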

Additional observations from a re-analysis of the deposited data

Results flagged for a closer look

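The coating effect on E2F3 differed between the times by a test of the difference itself. Its log2 fold change was 0.59 at 4 h and -0.29 at 24 h, a difference of -0.88 with a 95% interval of -1.35 to -0.41 and an adjusted p of 0.0293 in limma over all 15 arrays. The signal was higher in 4 of 4 Ti-TMS-PEI arrays of 4 h than in any Ti-Ref array of that time, and lower in 3 of 4 Ti-TMS-PEI arrays of 24 h. The adjusted p ran from 0.0126 to 0.116 over the alternatives, and the sign was negative in all 22 of them. In the 30 combinations of a gene and a group of 4 arrays, no array stood apart from the others by Dixon's test at its 95% critical value.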

How the results depend on the processing

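At 4 h, 0 of the 10 genes were differentially expressed under every alternative. At 24 h, against 0, the count was 2 (CDK2 and E2F1) with all 15 arrays in 1 fit or with a trended and robust variance, 1 (CDK2) with array weights, without the dimmest 25% of transcript clusters, with quantile normalisation over all 15 arrays, with arrays centred on their medians or at an adjusted p under 0.1, and 2 (CCND1 and CCNE2) with no fold threshold. Leaving out each array gave 0 to 1. In the interaction, against 1 (E2F3), the count was 3 (CDK2, E2F1 and E2F3) with a trended and robust variance, with centring or at an adjusted p under 0.1, 2 (CDK2 and E2F3) without the dimmest 25% or with quantile normalisation, 0 at a fold over 2, and 0 to 2 when each array was left out. The cause of these shifts was not tested.

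Residuals of same-letter arrays on both surfaces correlated between -0.071 and 0.046, and 3 of 7 correlated best with their own letter. These were A, C and D of 4 h, while A, B and C of 24 h each correlated best with another letter. With so few arrays, this check cannot decide whether the letters pair the arrays. With the letter as a replicate block, the genes of the 10 called were 0 at 4 h, 0 at 24 h and 0 in the interaction, where E2F3 was -0.89 with an adjusted p of 0.116, and the adjusted p values at 24 h were 0.0874 for CCND1 and 0.167 for CCNE2. Over all transcript clusters the block called 0 at 4 h against 9, 853 at 24 h against 1319 and 578 in the interaction against 1026. Of the E2F targets it called 8 of 21 at 24 h against 13, and 3 of 21 in the interaction against 8. At 24 h it also lost CKS1B (limma, adjusted p = 0.0571), FOS (0.103) and CDK1 (0.0671). The E2F targets it lost in the interaction were CDC45 (0.0639), MCM10 (0.0889), TYMS (0.0701), TK1 (0.0592) and UHRF1 (0.0701).

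Signs turned only for values near 0. CCNE1 at 4 h, -0.005, became 0.011 with quantile normalisation, 0.029 with centring and -0.14 to 0.095 when arrays were left out. CDK6 at 24 h, 0.014, became -0.063 with the replicate block, -0.047 with centring and -0.078 to 0.073 when arrays were left out. Leaving out arrays also gave -0.023 to 0.16 for CCND3 at 4 h, -0.015 to 0.14 for CDK6 at 4 h and -0.13 to 0.029 for the difference of CDK6. Centring moved the genes higher on Ti-TMS-PEI to 596 of 1371 called at 24 h, against 742 of 1319, and to 419 of 1177 in the interaction, against 557 of 1026. At 4 h, all transcript clusters called were 62 with all 15 arrays in 1 fit, 83 with a trended and robust variance, 24 without the dimmest 25%, 5 with quantile normalisation, 15 with centring and 0 to 3 when arrays were left out, against 9. Leaving out arrays gave 851 to 1370 at 24 h and 681 to 1111 in the interaction. Dim signals such as CCND2 are compressed towards background.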
